A study of Mus musculus with 26 samples.

Results

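The genes described here encode the proteasome and the enzymes that attach ubiquitin to proteins or take it off again. They were chosen by name: every probe set with a single annotated symbol that began with Psma to Psmg or Psme and a number, Ube1 to Ube4, Usp, Uba, Uch or Cul. This gave 78 of the 6137 genes with a single symbol on the arrays. They had 100 of 13179 probe sets, with 78 probe sets on the A array and 22 on the B array, and 22 genes had 2 of them. The pattern used names only, but it was chosen with earlier results of these data known. The name pattern also took in Psmc3ip and Psme3ip1, which are named after a subunit they bind but are not part of the proteasome, and these 2 genes are kept apart below. Psmd5, a chaperone that helps to assemble the 19S cap, is counted by its name with the 19S non-ATPases throughout.

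Ubiquitin is passed from an activating enzyme (E1) to a conjugating enzyme (E2) and then, with the help of a ligase (E3) such as a cullin complex, to a target protein, while deubiquitinases remove it. Chains of ubiquitin mark a protein for the proteasome, whose 20S core is a barrel of alpha subunits at the ends and beta subunits in the middle, 3 of which cut proteins. The 19S cap of ATPases and non-ATPases binds, unfolds and feeds in the marked protein, and Psme activators can take the place of that cap. In immune and interferon-treated cells the cutting subunits Psmb5, Psmb6 and Psmb7 are replaced by the immunosubunits Psmb8, Psmb9 and Psmb10. In heart muscle the system clears worn or misfolded contractile proteins.

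The hearts came from mouse embryos at embryonic day 12.5 of a line that lacks the NK2-specific domain of Nkx2.5, a transcription factor of the developing heart. There were 5 wild-type hearts (numbered 1, 2, 7, 9 and N1 in the labels), 4 heterozygous hearts with the deletion on 1 allele (5, 6, 12 and N2) and 4 null hearts with it on both (3, 4, 8 and N3). Total RNA of each entire heart was run on 1 A and 1 B oligonucleotide array, which gave 26 arrays. The labels give no litter, sex or strain and do not say whether the hearts came from separate litters, so p-values measure only the spread between these hearts, which may be technical.

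Values were intensities on a linear scale, and the number of arrays limits their precision. Negative values (10.1% to 29.5% of an array's values) set the noise, and values under a floor of 2 times that noise, 887 on the A array and 1373 on the B array, were raised to it before taking log2. Blank cells were missing values: the A arrays of hearts 1, 6 and N2 and the B arrays of hearts 3, 9 and N1 lacked 62.5% to 81.3% of theirs. Testing was limited to the 4494 probe sets with 4 or more arrays above the floor and 2 or more values in every genotype. As a check of the tissue, all 9 cardiomyocyte genes of a marker list that were on the arrays exceeded the floor in at least 50% of the values of a probe set, as did all 6 endothelial and all 6 mesenchymal ones, and none of the liver, lung or neuron genes did. Of the 4 skeletal muscle genes 3 met this rule. Single values of liver and lung genes exceeded the floor. Afp did so in 2 hearts on each array (highest values 1441.6 and 3657.6), Scgb1a1 in 2 hearts on the B array and Sftpc in 1. Summed over Afp and Alb, intensity was highest in hearts 6 and 1, at 5866.9 and 3357.7. In whole hearts, fewer cells of a type and less RNA per cell cannot be told apart.

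Which of these genes could be measured differed by role. Of the 100 probe sets, 71 (58 genes) were tested, 53 of them above the floor on every array with a value, and 24 never exceeded the floor. Passing the filter says only that a probe set gave signal, since probes differ in how well they bind. All 9 probe sets of 20S alpha subunits and all 8 of 20S beta subunits other than the immunosubunits passed, as did 14 of 16 for 19S non-ATPases, 4 of 6 for 19S ATPases and 15 of 18 for conjugating enzymes. Only 9 of 22 deubiquitinase probe sets did, and 10 of the 22 were never above the floor. The immunosubunits stood at the other end, with 1 of 5.

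**Figure D1:**
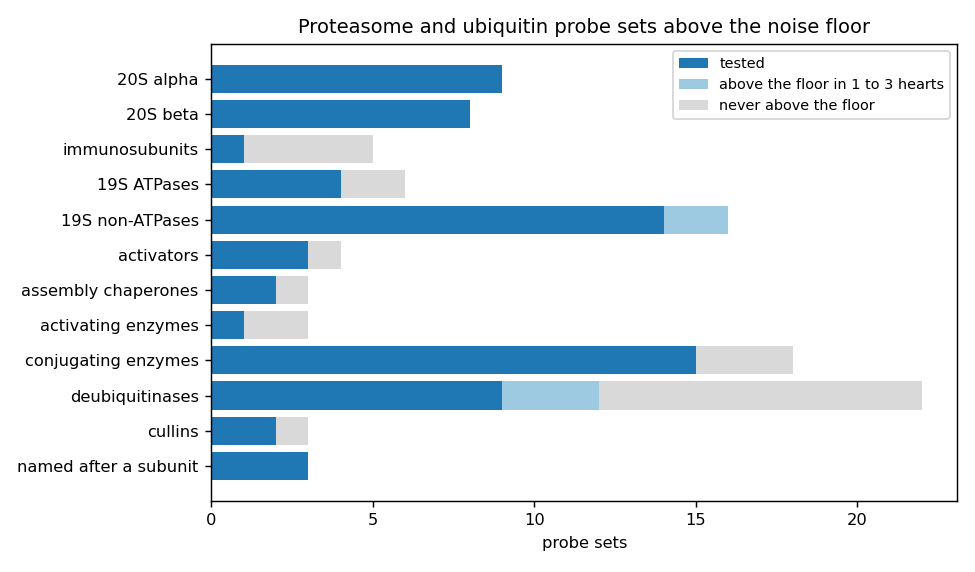
Horizontal bars count the 100 probe sets by subfamily (x axis, probe sets): tested, above the noise floor in 1 to 3 hearts only, or never above it. All 17 probe sets of the 20S alpha and beta subunits were tested, while 4 of 5 immunosubunit probe sets were never above the floor.

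Of the cutting subunits of the constitutive core, Psmb6 and Psmb7 gave signal far above the floor in every heart with a value, and Psmb5 was not analysed here. For Psmb6, the caspase-like subunit, the wild-type hearts 2, 7, 9 and N1 had intensities of 16400.6, 14046.4, 11186.9 and 11444.9, the heterozygous hearts 5 and 12 had 14558.9 and 15681.5, and the null hearts 3, 4 and N3 had 17651.6, 17569.0 and 11615.6. Psmb7, the trypsin-like subunit, ranged from 6797.9 to 9380.8 over 10 hearts, with a median of 7959.2. The genotypes overlapped for both genes.

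Their interferon-inducible counterparts did not reach the floor, except for 1. Psmb8 had 2 probe sets, whose highest values were 310.9 on the A array and 318.5 on the B array, and the highest values of the 2 Psmb9 probe sets were 68.9 and 614.0. Psmb10, the counterpart of Psmb7, exceeded the floor of 887 in 7 of 10 hearts and at most by a small margin, with a median of 1059.7. Usp18, a deubiquitinase that is induced by interferon, also stayed below the floor, at 367.8 or less. The leukocyte marker genes were split: Lyz2, Ptprc and Fcer1g exceeded the floor in every heart with a value, with medians of 6604, 2338 and 1421.6, while Cd68, Cd52 and Csf1r never did, with highest values of 476.9, 277.0 and 365.9.

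Promoter sequences are shown for constitutive and inducible subunits and for genes named in the comparisons. RefSeq promoter windows of 300 bases (250 before and 50 after the gene's start, assembly GRCm38.p6) were in the table for 60 of the 78 genes, in 68 windows. Both strands were searched for CCGGAAG (the core bound by ETS family factors), CCAAT and TGACNNNGC (the core of the antioxidant response element, to which Nfe2l1 and Nfe2l2 bind). Each motif was counted by itself, whether or not a match overlapped that of another. The 100 bases before the start are shown for 8 genes, 5′ to 3′ on the strand of the gene, in lower case with motif matches in capitals. Psmc1, Psmd11 and Psmd12 are 19S subunits with an ETS core close to the start:
Psmc1, chr12:100110102-100110201, plus strand: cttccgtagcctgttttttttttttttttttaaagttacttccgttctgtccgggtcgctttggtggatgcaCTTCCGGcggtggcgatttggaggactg
Psmd11, chr11:80428515-80428614, plus strand: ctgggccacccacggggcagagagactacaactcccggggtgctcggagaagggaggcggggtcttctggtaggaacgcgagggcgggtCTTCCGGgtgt
Psmd12, chr11:107479428-107479527, plus strand: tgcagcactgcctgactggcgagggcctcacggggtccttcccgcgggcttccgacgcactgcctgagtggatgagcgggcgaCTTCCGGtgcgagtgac
Psmb6 is the 20S subunit with a match to the antioxidant response core:
Psmb6, chr11:70525257-70525356, plus strand: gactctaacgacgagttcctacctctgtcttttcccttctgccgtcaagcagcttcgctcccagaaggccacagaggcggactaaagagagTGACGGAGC
Psmb8 and Psmb9 are the immunosubunits that stayed below the floor:
Psmb8, chr17:34198095-34198194, plus strand: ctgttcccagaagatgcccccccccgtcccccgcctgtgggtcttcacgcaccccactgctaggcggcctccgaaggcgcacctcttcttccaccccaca
Psmb9, chr17:34187331-34187430, minus strand: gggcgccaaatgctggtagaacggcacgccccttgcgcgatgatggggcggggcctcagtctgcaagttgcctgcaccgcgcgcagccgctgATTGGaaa
Psmc5 and Ube2e1 passed the test between heart numbers described further on, and their stretches hold none of the 3 motifs:
Psmc5, chr11:106256085-106256184, plus strand: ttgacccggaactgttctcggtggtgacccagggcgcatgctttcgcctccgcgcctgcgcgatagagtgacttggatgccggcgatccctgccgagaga
Ube2e1, chr14:18331845-18331944, minus strand: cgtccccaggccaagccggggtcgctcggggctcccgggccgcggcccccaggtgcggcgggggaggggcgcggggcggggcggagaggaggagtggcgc

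The ETS core was in 10 of 26 windows of 20S and 19S genes (38.5%), namely in Psma6, Psmc1, Psmc2, Psmc6, Psmd2, Psmd4, Psmd6, Psmd11 and Psmd12. Over all 32851 windows of the table the share was 8.86%, and over the 2879 windows of genes with a tested probe set in these hearts it was 18.9%. CCAAT was in 34.6% of the 20S and 19S windows against 37.4% of all windows, and TGACNNNGC in 15.4% against 12.4%. Over the windows of genes with a tested probe set the shares of these motifs were 36.8% and 15.1%. None of the 3 immunosubunit windows held the ETS core, and 1, that of Psmb9, held CCAAT. These shares describe the letters only, and a match is not evidence that a factor binds there.

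Null against wild-type hearts addresses loss of the domain from both alleles. None of the 71 probe sets passed the test (limma, adjusted p under 0.05, Benjamini-Hochberg over all 4494 probe sets), where 0.0223% of all probe sets did, and 3 had an unadjusted p under 0.05, where 2.4% of all probe sets did. The median log2 difference of the 71 was -0.01, beside -0.01 for all tested probe sets. For 69 of them the 95% interval of the difference lay within 2-fold in either direction, and for 48 within 1.5-fold. The exceptions to the 2-fold bound were 1 probe set each of Ube2h and Ube2l3, both conjugating enzymes. In none of the 71 were all null hearts on 1 side of all wild-type hearts, where 2.27% of all probe sets were apart.

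The 3 with the smallest p-values were all lower in null hearts, and each overlapped between genotypes. For Psmb10 the wild-type hearts 2, 7, 9 and N1 had 1265.6, 1231.0, 1271.7 and 1101.9, the heterozygous hearts 5 and 12 had 682.0 and 1017.5, and the null hearts 3, 4, 8 and N3 had 1229.4, 891.0, 705.5 and 768.7. Null heart 3 lay within the wild-type range, and the other null hearts lay below it, 2 of them under the floor. Null minus wild type was -0.34 ± 0.14 (SE) on the log2 scale (limma, adjusted p 1.0), fitted to values raised to the floor. Before that step the mean intensities were 899 ± 234 (SD, n = 4) in null and 1218 ± 79.2 (n = 4) in wild-type hearts. Within the number ranges of the labels the log2 difference was -0.27 (hearts 1 to 6), -0.50 (7 to 12) and -0.31 (N), with 1 or 2 hearts on a side. The 3 leukocyte genes tested had log2 differences of -0.25 to -0.00, and their part in the Psmb10 value was not tested.

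Ube2h, a conjugating enzyme of muscle and blood cells, had 2 probe sets that differed in size of change. The first, U19854_s_at, had 1448.3, 2049.0, 2228.8 and 2095.0 in wild-type hearts 2, 7, 9 and N1, 1440.0 and 1825.2 in heterozygous hearts 5 and 12, and 743.4, 1387.9 and 1627.1 in null hearts 3, 4 and N3. Null heart 3 was the lowest and lay under the floor. Here null minus wild type was -0.61 ± 0.25 (SE) on the log2 scale (limma, adjusted p 1.0), while the second probe set, aa396357_s_at, gave -0.05 ± 0.17.

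Psmd5, a chaperone that helps to assemble the 19S base, had 2033.5, 2612.9, 2420.3, 2560.7 and 2172.4 in wild-type hearts 1, 2, 7, 9 and N1. The heterozygous hearts 5, 6, 12 and N2 had 2048.1, 2120.3, 2847.0 and 2385.8, and the null hearts 3, 4, 8 and N3 had 2263.5, 1265.7, 1404.8 and 2162.6. Null hearts 4 and 8 were low, and null hearts 3 and N3 lay within the wild-type range. Psmd5 differed by -0.42 ± 0.19 (SE) on the log2 scale (limma, adjusted p 1.0), and within number ranges it was -0.39, -0.83 and -0.01 (hearts 1 to 6, 7 to 12 and N).

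**Figure D2:**
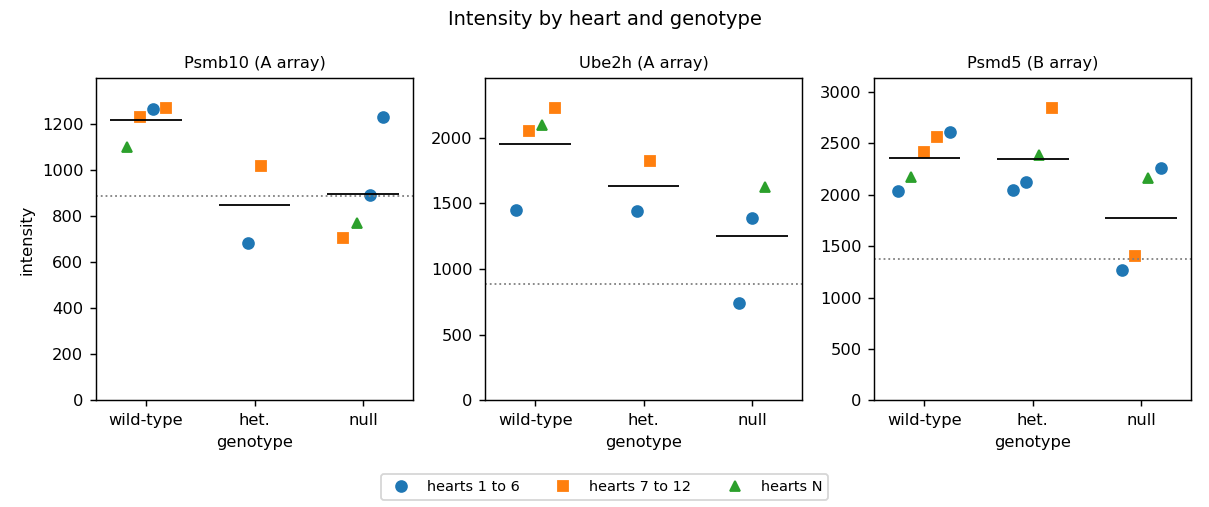
Intensity (y axis, linear) of Psmb10, Ube2h (U19854_s_at) and Psmd5 in each heart by genotype (x axis). Each point is 1 heart, marked by its number range in the labels, the horizontal line is the group mean and the dotted line the noise floor. In each panel at least 1 null heart lay within the wild-type range.

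By role, the differences between null and wild-type hearts were small and mixed, and no member of any subfamily passed the test. Higher in null hearts, though below the threshold, were 7 of 8 20S beta probe sets (median log2 difference 0.10) and 7 of 9 20S alpha ones (0.08), beside 48.6% of all tested probe sets. For Psma4 (AA107734_f_at) the value was 0.28 ± 0.21 (SE) and for Psmb6 0.23 ± 0.19. The 19S ATPases were 2 higher and 2 lower, with Psmc3 at 0.18 ± 0.13, and the 19S non-ATPases 7 and 7, with Psmd2, a scaffold of the cap, at 0.23 ± 0.18. The conjugating enzymes were 12 of 15 lower (median -0.09) and the deubiquitinases 7 of 9 lower (median -0.02), with Usp14, which trims chains at the proteasome, at -0.29 ± 0.18. Under quantile scaling, cyclic loess and trimmed-mean scaling, 6 or 7 of the 8 beta and 6 of the 9 alpha probe sets were higher, and 10 to 13 of the 15 conjugating enzymes lower. The lean of the 20S probe sets rested in part on single hearts. Without null heart 3, Psmb3 (AA407689_rc_s_at), Psmb1 (C81484_rc_s_at) and Psma2 (X70303_f_at) became -0.11, -0.02 and -0.05.

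In the small subfamilies, the activators Psme1, Psme3 and Psme4 had log2 differences of -0.08 ± 0.18, -0.23 ± 0.31 and 0.14 ± 0.17 (SE). The assembly chaperones Psmg1 and Psmg4 had -0.07 ± 0.16 and -0.02 ± 0.20, Uba7, the activating enzyme of the ubiquitin-like protein Isg15, had -0.08 ± 0.10, and the cullins Cul2 and Cul4a, scaffolds of ligase complexes, had -0.04 ± 0.16 and 0.18 ± 0.24. All 8 adjusted p-values in limma were 1.0, and the signs of Psme1, Psme3, Psmg1, Psmg4 and Cul2 changed under at least 1 other setting. Beside these values, all 12 cardiomyocyte marker probe sets were higher in null hearts (median 0.28), all 6 red cell ones were higher (median 0.51) and all 6 endothelial ones lower (median -0.26). None of them was called, and their part in the values of the proteasome genes was not tested.

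**Figure D3:**
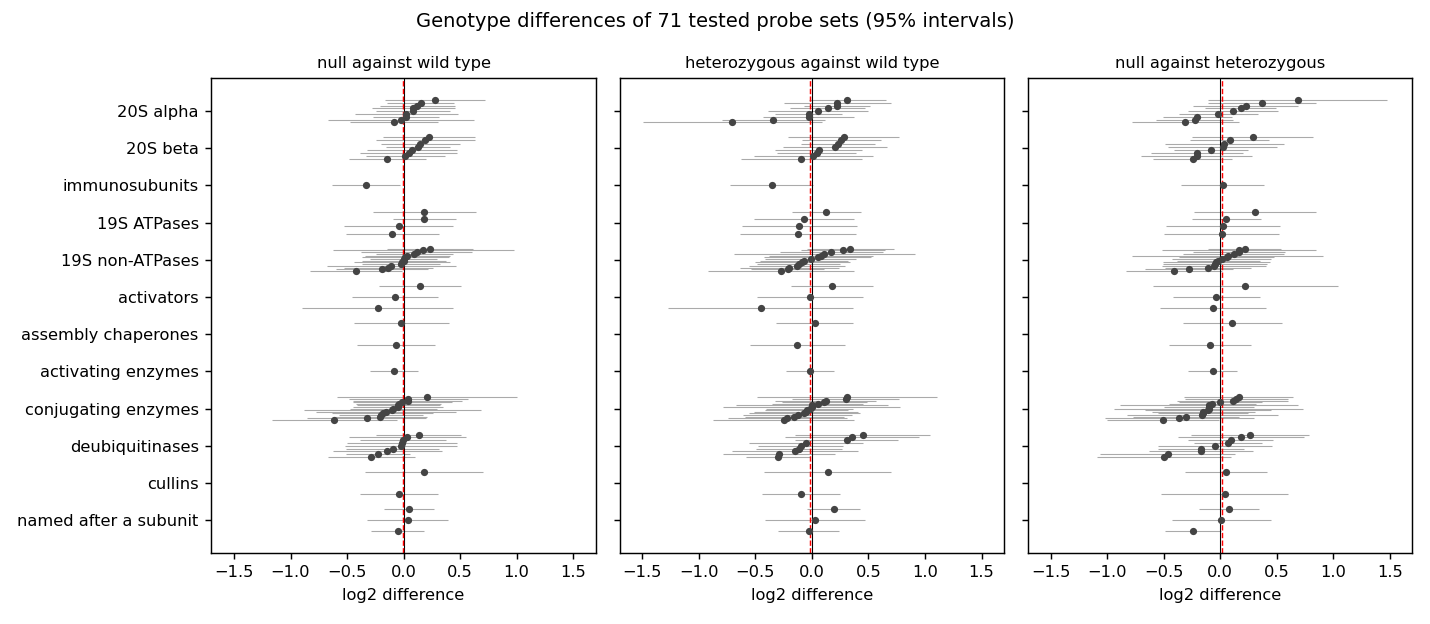
Log2 differences (x axis) of the 71 tested probe sets by subfamily (y axis) for the 3 genotype comparisons. Points are estimates, grey lines 95% intervals and the red dashed line the median of all 4494 tested probe sets. Estimates lie on both sides of 0 in most subfamilies, and no member passed the test.

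Heterozygous against wild-type hearts addresses loss from 1 allele. No member passed the test, and neither did any other probe set (0% called). By unadjusted p under 0.05 there was 1 member, where 3.38% of all probe sets were below it. That was Usp33, a deubiquitinase, at -0.30 ± 0.14 (SE) on the log2 scale (limma, adjusted p 0.981). Its probe set (aa210301_f_at) exceeded the floor in 4 hearts only, wild-type hearts 7, 9 and N1 at 1098.7, 1293.1 and 1381.6 and null heart 8 at 1081.4. It met the filter through these hearts alone. All 4 heterozygous values (601.5 to 790.7) were raised to the floor, so the size and SE of the difference depend on that floor. The median of the members was -0.02, beside -0.01 for all, and 67 of 71 intervals lay within 2-fold.

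Groups of heterozygous and wild-type hearts did not overlap for 3 members, or 4.23%, where 5.5% of all probe sets were apart. Psmb10 was lower, at 850 ± 237 (SD, n = 2) against 1218 ± 79.2 (n = 4). Uchl5 (aa614954_g_at), a deubiquitinase of the 19S cap, was higher at 2129.5 and 2112.6 in hearts 5 and 12 against 1582 ± 347 (SD, n = 4), and Usp5, which recycles free chains, was higher at 1630 ± 26.7 (n = 2) against 1299 ± 278 (n = 4). Each rests on 2 heterozygous hearts, 5 and 12, because hearts 6 and N2 were blank there. The other Uchl5 probe set differed by -0.05 ± 0.23 on the log2 scale.

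Among the core subunits, both Psma2 probe sets were higher in heterozygous hearts, by 0.31 ± 0.16 and 0.22 ± 0.14 on the log2 scale, with adjusted p-values of 0.981 in limma. The largest estimate was that of Psma3 (C80757_rc_f_at), at -0.71 ± 0.37. Heterozygous heart 5 set it, with a value of 131.8 beside 2434.0 in heart 12 and 1736.1 to 2859.2 in the 4 wild-type hearts. That value was raised to the floor of 887 before the fit, so the size and SE of the difference depend on the floor. Over the alternatives the estimate ranged from -1.21 to -0.41. The other Psma3 probe set differed by -0.03 ± 0.19.

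Null against heterozygous hearts compares deletion on both alleles with deletion on 1, and it shares its samples with the other 2 comparisons. Again no member passed the test (0% of all probe sets called), and 1 member had an unadjusted p under 0.05, where 5.79% of all probe sets did. This was Ube2d2a, a widely used conjugating enzyme, at 914.9, 1173.0 and 986.8 in null hearts 3, 4 and N3 against 1605.2 and 1309.9 in heterozygous hearts 5 and 12. The wild-type hearts 2, 7, 9 and N1 had 1587.7, 1097.6, 987.9 and 1121.1, which spanned both groups. Null minus heterozygous was -0.51 ± 0.23 (SE) on the log2 scale (limma, adjusted p 0.790). Ube2d2a and Uchl5 (aa614954_g_at) were the 2 members whose groups did not overlap, 2.82% of 71, where 7.7% of all probe sets were apart. The median of the members was -0.02, beside 0.02 for all, and 65 of 71 intervals lay within 2-fold.

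The heart numbers gave larger differences than the genotypes. Hearts 7 to 12 and N were compared with hearts 1 to 6, with genotype in the model; what the numbers stand for is not given in the labels. Of all 4494 probe sets 7.14% passed the test, and 3.87% of all 4494 passed it and were higher in the later-numbered hearts. Among the members 3 of 71 passed, or 4.23%, all higher: Psmc5, Psmd3 (its B array probe set) and Ube2e1, each on the B array. At an unadjusted p under 0.05 there were 19 of 71, or 26.8%, where 24.7% of all probe sets were below it. Groups did not overlap for 6 members, or 8.45%, where 6.88% of all probe sets were apart.

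Psmc5, an ATPase of the cap, had 6965.1, 8975.1, 8200.7, 8935.7 and 6937.0 in hearts 1, 2, 5, 6 and 4. It had 11272.8, 12221.2, 11193.9 and 12712.4 in hearts 7, 9, 12 and 8, and 12523.3, 10727.4 and 10852.8 in hearts N1, N2 and N3. All later-numbered hearts were above all early-numbered hearts with a value, in each genotype. Null heart 3 had no value, so heart 4 was the only early-numbered null heart. The log2 difference was 0.55 ± 0.11 (SE), adjusted p 0.0112 in limma, and within wild-type, heterozygous and null hearts it was 0.60, 0.36 and 0.76.

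Psmd3, a non-ATPase of the cap, had 8329.0, 8165.9, 10487.0, 9572.4 and 8075.9 in hearts 1, 2, 5, 6 and 4, and 13228.7, 11259.6, 13157.0, 12413.7 and 10761.9 in hearts 7, 12, 8, N2 and N3. The groups did not overlap, though heart 5 came within a small margin of heart N3. Later minus earlier numbers was 0.46 ± 0.12 (SE) on the log2 scale, adjusted p 0.0466 in limma. Its A array probe set, M25149_s_at, differed by 0.08 ± 0.24.

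Ube2e1, a conjugating enzyme, lay near the floor of 1373 in hearts 1 to 6, at 859.1, 1344.6, 1376.9, 1342.3, 1448.5 and 1023.3 in hearts 1, 2, 5, 6, 3 and 4. It had 1732.1, 2117.0, 2598.7 and 1345.7 in hearts 7, 9, 12 and 8, and 2036.6, 2361.2 and 1827.8 in hearts N1, N2 and N3. Null heart 8 overlapped with the earlier numbers. The log2 difference was 0.51 ± 0.12 (SE), adjusted p 0.0221 in limma, and within genotypes it was 0.51 (wild-type), 0.85 (heterozygous) and 0.17 (null).

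**Figure D4:**
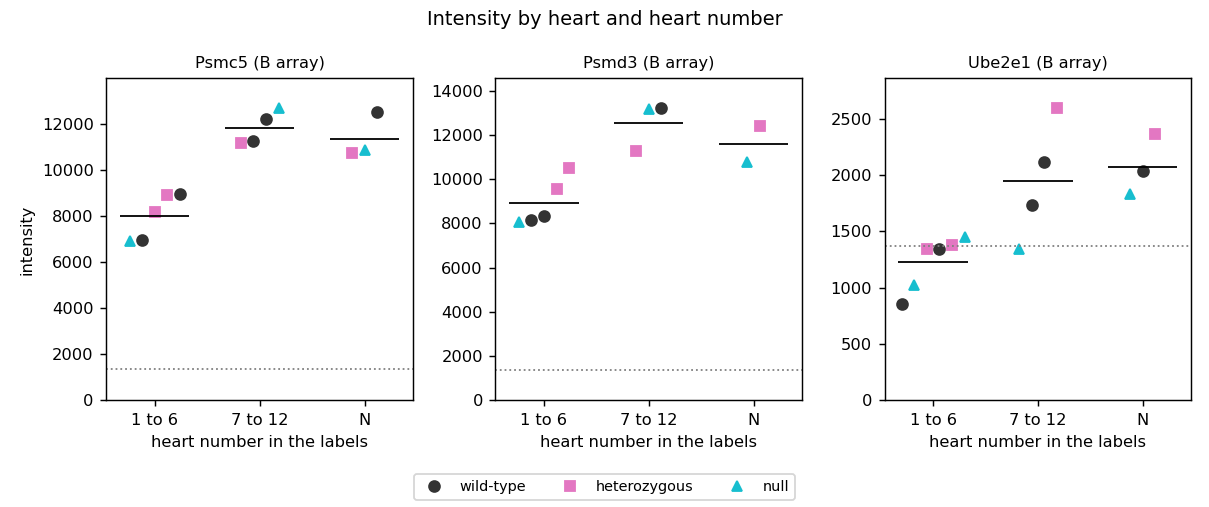
Intensity (y axis, linear) on the B array of Psmc5, Psmd3 and Ube2e1 by heart number in the labels (x axis). Each point is 1 heart, with its genotype given by colour and shape; the line is the group mean and the dotted line the noise floor. For Psmc5 the 7 later-numbered hearts lie between 10727.4 and 12712.4, above the highest early-numbered heart with a value, at 8975.1 (heart 3 had none).

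These 3 calls depended on scaling and on single hearts. With quantile scaling the adjusted p-values became 0.0530 (Psmc5), 0.212 (Psmd3) and 0.0847 (Ube2e1), and with cyclic loess 0.0736, 0.290 and 0.0805. Psmc5 lost its call without null heart 4 (0.0544), and Ube2e1 without wild-type heart 2 (0.0639). Psmd3 lost its call without any 1 of hearts 1, 2, 4, 6, 7, 8, N1 or N2 (0.0523 to 0.172). Without the 3 N hearts Psmd3 (0.0540) and Ube2e1 (0.0683) lost their calls, and without the arrays that lacked over 50% of their values Psmc5 alone passed. Over the whole list 1 member was called without null heart 4 or wild-type heart 2, and 5 without heterozygous heart 12, where 42 could be tested. The number called among all probe sets also moved, from 103 to 342 with 1 heart left out, beside 321 with all hearts. The shifts in the member counts are therefore not read as particular to the members.

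By role, 11 of the 15 conjugating enzyme probe sets (12 genes) were higher in the later-numbered hearts. Their median log2 difference was 0.36, beside 0.01 for all tested probe sets. Of the 15, 9 had an unadjusted p under 0.05, where 24.7% of all probe sets did. Of these 9, 8 were higher, and after adjustment Ube2e1 alone passed. Ube2o (w58861_s_at), among those 8, exceeded the floor only in the later-numbered hearts 7, 8, 9, 12 and N1. It met the filter through these hearts alone and adds no support, though the counts and medians given here include it. Ube2e3 had 0.35 ± 0.13 and 0.36 ± 0.16 (SE) on its 2 probe sets, Ube2h 0.32 ± 0.12 and 0.50 ± 0.19, and Ube2b, which works in DNA repair, 0.39 ± 0.14, with adjusted p-values of 0.0970 to 0.181 in limma. Ube2c, the enzyme of the anaphase-promoting complex in dividing cells, was lower at -0.36 ± 0.13 (adjusted p 0.105). Under the 3 other scalings the conjugating enzymes remained 11 of 15 higher, with medians of 0.26 to 0.31.

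The 20S and 19S probe sets, the assembly chaperone Psmd5 among them, showed no common direction. As deposited, 19 of 35 were higher (2 called), with a median of 0.04. Under the other scalings 13 or 14 of 35 were higher, with medians of -0.04 to -0.09. Psmb2 and Psmb6, both of the beta ring, had -0.40 ± 0.15 and -0.35 ± 0.14 (SE) with adjusted p-values of 0.124 and 0.151 in limma. Cul4a, whose complex acts on chromatin proteins, had -0.56 ± 0.16 and 0.0540. Cul2 had -0.18 ± 0.12. In the same comparison, where 7.14% of all probe sets were called, all 12 cardiomyocyte marker probe sets were lower (3 called). Of the mesenchymal ones 10 of 11 were higher (2 called), and of the endothelial ones 4 of 6 were higher (2 called). Summed over Kdr, Tie1 and Eng, the endothelial genes with a value in every heart, intensity was 13036 to 22604 in hearts 1 to 6 and 22255 to 34797 in the others. Of the red cell markers 4 of 6 probe sets were lower and 2 higher (log2 differences of -2.12 to 1.29), and the 1 called was higher. The log2 ratio of the 3′ to the 5′ Gapdh probe set, a sign of RNA integrity, was -0.10 to 0.06 in hearts 1 to 6 and -0.22 to 0.08 in the others on the B array. That of beta-actin was 0.15 to 0.47 and -0.27 to 1.03, and heart N2 had the highest beta-actin ratio on both arrays. The part of these cell types in the values of the proteasome genes was not tested.

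The subunits of the proteasome varied together from heart to heart somewhat more than probe sets in general. With genotype means removed, the median Pearson correlation over 227 pairs of 20S and 19S probe sets on the A array was 0.15, beside 0.01 over all pairs of tested probe sets, and over 27 pairs on the B array it was 0.34, beside 0.00. Over all members it was 0.07 on the A array (1170 pairs) and 0.35 on the B array (103 pairs). Differences between heart-number ranges were not removed. On the A array pairs within the 20S core had 0.26 (63 pairs), and pairs within the 19S cap -0.04 (44 pairs). The conjugating enzymes had -0.11 on the A array (21 pairs) and 0.48 on the B array (14 pairs), and the deubiquitinases 0.20 on the A array (35 pairs). All pairs share the same 10 to 13 hearts and arrays, so each value describes these hearts and no p is given.

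Per heart, the median deviation of the A array proteasome probe sets (at most 27) from their means was highest in null heart 3, at 0.27 on the log2 scale, and lowest in null heart 8, at -0.15. All tested probe sets had 0.02 and -0.01 in those hearts. On the B array heart 8 was at -0.20 and null heart 4 at -0.24, and heterozygous heart 12 was highest at 0.23. On the A array null hearts thus lay at both ends of the range.

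**Figure D5:**
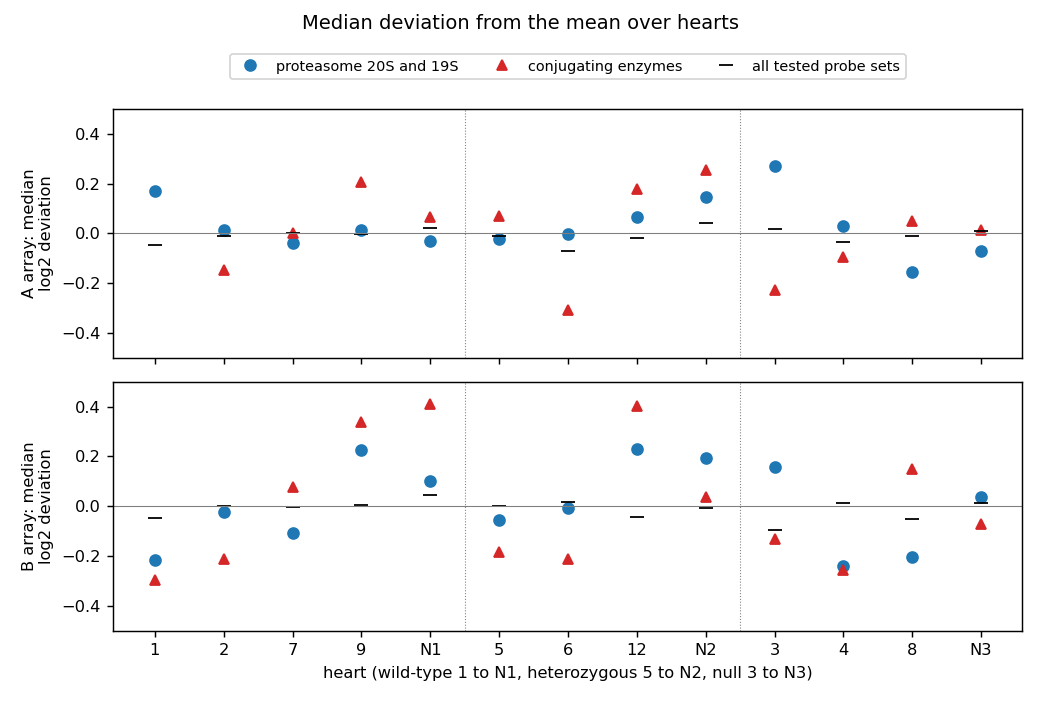
Median log2 deviation (y axis) of tested probe sets from their mean over hearts, for each heart (x axis, wild-type, heterozygous and null from left to right), on the A array (top) and the B array (bottom). Circles are 20S and 19S subunits, triangles conjugating enzymes and dashes all tested probe sets. On the A array the subunits range from -0.15 in null heart 8 to 0.27 in null heart 3.

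For 13 genes with 2 tested probe sets, direction could be read on both. Their log2 differences had the same sign in 7 of 13 genes for null against wild type, in 7 for heterozygous against wild type, in 9 for null against heterozygous and in 9 for the later-numbered hearts. Psmb1, Psmb3 and Psma2 were on the same side in both readings for null against wild type, and Psmd3, Psmd6 and Psmd8 were not. Most of these differences were near 0: of the 50 probe sets named by rule in that comparison, 30 changed sign under at least 1 other setting, none of them called. By the suffixes of their names, 62 of the 100 probe sets share probes with other transcripts and 12 stand for a gene family, so a value can hold signal of a related gene.

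Of 58 other genes of the pathway, from ubiquitin-like proteins to ligases and the COP9 signalosome (69 tested probe sets), none passed the test in a genotype comparison in limma, and 1 probe set in each had an unadjusted p under 0.05. Cops7a, a signalosome subunit, was the one for null against wild type, at 0.36 ± 0.15 (SE) on the log2 scale. Their medians were 0.02, 0.02 and -0.03. In the later-numbered hearts 2 of 69 passed, both higher, where 7.14% of all probe sets passed and 3.87% passed and were higher. They were Sqstm1, the p62 receptor that carries ubiquitinated proteins to autophagy, at 0.57 ± 0.12 with an adjusted p of 0.0221, and Bag6, a chaperone of misfolded proteins, at 0.56 ± 0.15 with 0.0353. A second Bag6 probe set had 0.24 ± 0.15. The call was lost under 13 of 24 alternatives for Bag6 and under 4 of 22 for Sqstm1, with adjusted p-values in limma of up to 0.120 and 0.0905. Nfe2l1, the factor that raises proteasome genes when the proteasome is inhibited, differed by -0.04 ± 0.17 between null and wild-type hearts.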

How the data were processed

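The members and gene lists were chosen with earlier results of these data known. The authors deposited 1 intensity per probe set and array, on a linear scale with negative values; software: not given in the sources used here. Values were used as scaled by the authors. Symbols came from the platform annotation, updated by gene ID through the RefSeq table (GRCm38.p6).

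Values below 2 times the noise (root mean square of a table's negative values, 443 and 686) were raised to that floor, log2 was taken, and limma 3.58.1 in R 4.3.3 was fitted once per table to all 13 hearts with a variance trend. Tests were two-sided with Benjamini-Hochberg adjustment over both tables and a threshold of 0.05. The procedure was tested on simulated data. Control probe sets were left out. Named probe sets were those called, the 5 smallest p-values per direction and comparison, all of the small subfamilies, the 4 smallest F-test p-values in each large one, and genes with 2 tested probe sets. Other members named (Psmb7, Psmb8, Psmb9, Psmd11, Psmd12, Usp7, Usp9x, Usp18, Ube2l6, Ube2s and the genes with an ETS match) were chosen after their values were seen. Alternatives covered the floor, scaling, filter, blank arrays, heart numbers, weights and each heart in turn.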

Additional observations from a re-analysis of the deposited data

Results flagged for a closer look

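Single hearts stood apart from the rest of their genotype (Dixon's test at the 95% level) in 7 of 121 groups of named probe sets. Chance flags about 1 in 20 groups. Wild-type heart 9 was low for Psmc3 at 772.7, under the floor of 887, where the other wild-type hearts had 955.0 to 986.7. Null heart N3 was high for Psmg4 at 2947.1. For Uba7, wild-type heart N1 was low at 642.6, also under that floor. Null heart 8 was high for it at 1018.5, where the other null hearts lay under the floor, at 774.6 to 808.4. For Psmb3 (AA407689_rc_s_at), heterozygous heart N2 was high at 6505.4 and null heart 3 high at 6040.4. Null heart 8 was low for Psmc4 at 2459.0.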

How the results depend on the processing

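In the 3 genotype comparisons the number of members called was 0 under every alternative run, leaving out each heart included. For the later-numbered hearts, where 3 members were called, quantile scaling and cyclic loess gave 0. Leaving out the arrays that lacked over 50% of their values gave 1, and leaving out 1 heart gave 1 to 5. Among all probe sets 321 were called in that comparison, 103 to 394 under the alternatives and 103 to 342 with 1 heart left out. The member medians moved by less than the spread between hearts (0.153) under all alternatives, over ranges of -0.05 to 0.04 (null against wild type), -0.02 to 0.03 (heterozygous against wild type), -0.06 to 0.03 (null against heterozygous) and -0.07 to 0.06 (later-numbered). Of 1487 recomputed values for the differences printed in the text or among the smallest p-values, 41 lost a call and 7 gained one, all in the later-numbered comparison, and 35 changed sign. With all probe sets of the naming rule added, 130 recomputed values changed sign. The cause was not tested.

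None of the 35 was called before or after. For null against wild type on the log2 scale, Nfe2l1 became 0.053 (quantile scaling), 0.042 (cyclic loess) and 0.117 (without the mostly blank arrays). Psmg4 became 0.060 with array weights, and the second Ube2h probe set 0.017 with the number range as a block and 0.054 with array weights. For heterozygous against wild type, the second Psma3 probe set became 0.104, 0.034 and 0.019 under quantile, loess and trimmed-mean scaling. The other Uchl5 probe set became 0.035 (quantile), 0.032 (loess), 0.010 (without N hearts), 0.068 (block) and 0.016 (weights). The A array probe set of Psmd3 became -0.39 in the later-numbered comparison without the N hearts. Leaving out 1 heart gave -0.126 to 0.0036 for Cul2, -0.105 to 0.048 for Nfe2l1, -0.106 to 0.068 for Psma3, -0.32 to 0.25 for Psmd3, -0.177 to 0.042 for Psme1, -0.468 to 0.0086 for Psme3, -0.137 to 0.0053 for Psmg1, -0.156 to 0.041 for Psmg4, -0.122 to 0.024 for Ube2h and -0.154 to 0.052 for Uchl5. No paired analysis was possible because no heart number occurs in 2 genotypes. Signal over background limits probe sets near the floor, among them Ube2e1, Psmb10, Uba7, Usp33, Psmc3, Psme3, Ube2d2a and Psmb1 (C81484_rc_s_at).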

Other observations

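The probe set of Ube2l6, the conjugating enzyme of Isg15, was above the floor in all 12 hearts with a value, from 2068.8 to 7725.6. By its suffix this probe set (aa273574_f_at) stands for a gene family, so the signal can be that of a related gene. Usp18, which removes Isg15, stayed below the floor. Ube2s, which extends chains for the anaphase-promoting complex, lay between 7887.7 and 13666.6 except in null heart 3, at 4249.7, and Ube2c in the same heart had 7775.9. Usp9x and Usp7, 2 large deubiquitinases, each had 1 probe set above the floor in every heart with a value and 1 that never exceeded it, the latter with highest values of 674.2 and 1033.0.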
